A study of Homo sapiens with 19 samples.

Results

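The comparison described here is that of H3K4me3 in MOLM-13 cells given Corin with H3K4me3 in MOLM-13 cells given DMSO. Its members are the 4 H3K4me3 peak lists labelled Corin or DMSO, replicates 1 and 2 of each, out of 19 libraries in the series, 12 of which have peak lists here. MOLM-13 is an established human acute myeloid leukaemia (AML) cell line that carries a fusion of the methyltransferase gene KMT2A (MLL). Corin is a single compound that blocks both the demethylase LSD1 and the class I histone deacetylases within the CoREST repressor complex, and DMSO is its solvent. Cells of both groups were the same unmodified line, were cultured alike, and were treated for 24 h. The labels give 0.1 µM for the Corin libraries, and they print the same figure beside the DMSO libraries, where its meaning is unclear. The mark was mapped by CUT&RUN, in which an antibody directs a nuclease to the modified nucleosomes of permeabilised cells. Each list holds the positions and scores of the peaks that the authors called in 1 library. The labels state only a minimum number of reads, and how deeply each library was sequenced is otherwise unknown. Nothing in the labels says that the 2 libraries of a group came from separate cultures, so p-values measure only the spread between these libraries.

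Trimethylation of lysine 4 of histone H3 marks the nucleosomes around the start sites of active genes. It is written by the SET1 and KMT2 methyltransferases and removed by the KDM5 demethylases, while LSD1 removes the mono- and dimethyl forms and not the trimethyl form. The mark lies mostly over promoters rich in CpG dinucleotides, and broad domains of it are known at genes that define a cell's identity.

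Promoters that differed between the groups included ones poor in CpG and ones rich in it, and 4 are shown, the first 2 in each direction by bp in the domain whose window held a RefSeq start site of the named gene and whose sequence could be shown. Each line is the 250 bases before the start site, from RefSeq on GRCh38.p14, 5′ to 3′, with each CpG in capitals. H3K4me3 peaks reached the window of 1000 bp either side of the start site at the first 2 in both Corin libraries and neither DMSO library. At the other 2 they reached it in both DMSO libraries and neither Corin library. LINC01619 is a long non-coding RNA, and its stretch (chr12:92142832-92143081, minus strand) has 1 CpG and 35.2% GC. CD68, a lysosomal glycoprotein of macrophages, also has 1 CpG (chr17:7579388-7579637, plus strand, 51.6% GC). PITPNM2, a phosphatidylinositol transfer protein, has 42 (chr12:123151091-123151340, minus strand, 81.6% GC). UXT, a prefoldin-like chaperone, has 14 (chrX:47659181-47659430, minus strand, 60.8% GC). The CD68 peaks lay within chr17:7579678-7581163, past its start site, so no peak covered the CD68 stretch shown.
LINC01619: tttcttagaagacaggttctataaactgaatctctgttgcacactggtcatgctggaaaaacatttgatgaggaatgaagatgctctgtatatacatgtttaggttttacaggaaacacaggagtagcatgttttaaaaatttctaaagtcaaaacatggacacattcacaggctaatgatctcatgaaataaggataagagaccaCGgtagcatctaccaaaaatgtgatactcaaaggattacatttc
CD68: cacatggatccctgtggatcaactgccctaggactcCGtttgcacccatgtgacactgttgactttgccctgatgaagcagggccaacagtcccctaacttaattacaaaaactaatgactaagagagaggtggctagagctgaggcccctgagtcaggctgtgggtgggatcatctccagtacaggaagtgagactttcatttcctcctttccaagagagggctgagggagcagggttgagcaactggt
PITPNM2: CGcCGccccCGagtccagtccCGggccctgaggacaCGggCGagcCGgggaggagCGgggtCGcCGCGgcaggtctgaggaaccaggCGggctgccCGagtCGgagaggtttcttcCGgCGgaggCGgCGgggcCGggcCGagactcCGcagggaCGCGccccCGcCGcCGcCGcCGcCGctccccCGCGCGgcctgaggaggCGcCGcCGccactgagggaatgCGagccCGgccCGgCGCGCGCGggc
UXT: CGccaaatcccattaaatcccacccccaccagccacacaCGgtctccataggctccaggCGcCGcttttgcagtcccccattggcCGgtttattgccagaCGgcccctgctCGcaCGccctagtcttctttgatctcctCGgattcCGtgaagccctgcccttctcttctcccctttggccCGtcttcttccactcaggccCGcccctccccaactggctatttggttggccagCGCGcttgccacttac

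The 4 lists were alike in size. Corin replicates 1 and 2 held 11757 and 11883 peaks, and DMSO replicates 1 and 2 held 11104 and 11343. The Corin lists covered 15.65 and 15.19 Mb and the DMSO lists 14.22 and 14.96 Mb. Both Corin lists lay above both DMSO lists in each measure, with DMSO replicate 1 the lowest in both. Peak number differed by 0.075 ± 0.017 (log2 ratio of the group means, SE, n = 2 against 2) and covered length by 0.080 ± 0.042, each with an exact two-sided permutation p of 0.333, the smallest that 2 libraries against 2 can give. The difference in covered length was 0.043 without DMSO replicate 1, and that in peak number 0.049 with peaks under 500 bp apart joined. Median peak width did not separate the groups, at 1154 and 1105 bp under Corin and 1101 and 1168 bp under DMSO (exact permutation p = 1). Between 90.63% and 92.49% of peaks overlapped a promoter window, defined as 1000 bp either side of an annotated start site with overlapping windows merged. That share was lower in both Corin libraries than in either DMSO library, with a difference of -1.315 ± 0.470 percentage points (SE, n = 2 against 2, exact permutation p = 0.333). It was -0.852 points without DMSO replicate 1. With the 11104 top-scoring peaks of each list the shares were 92.35% and 92.24% under Corin and 92.49% and 92.12% under DMSO, so the groups overlapped and the difference was -0.009 points (exact permutation p = 1).

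The peaks matched the labelled cell type. Of 12 genes fixed as markers of AML cells, 11 had a promoter peak in all 4 libraries, among them SPI1, CD33, FLT3, CEBPA and HOXA9. The exception was MPO, which had none in any library. No promoter of the 5 T cell, 5 B cell, 5 epithelial or 5 fibroblast markers had a peak in any library, and of 6 erythroid and megakaryocyte markers the erythropoietin receptor gene EPOR was the one with a peak, in both Corin libraries and DMSO replicate 2. Its window held 1028 bp in each Corin library and 0 and 41 bp in the DMSO libraries.

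H3K4me3 appeared at 102 promoter windows and disappeared at 21. A mark is said to have appeared where the window held a peak in Corin replicates 1 and 2 and in no DMSO library, and to have disappeared in the opposite case. Of 40892 windows, 10211 had a peak in at least 1 library and 9154 in all 4, so the 102 windows were 0.999% of those marked anywhere and the 21 were 0.206%. The same rule applied to the replicate numbers gave 29 windows marked only in both libraries of replicate 1 (0.284%) and 99 only in both of replicate 2 (0.97%). The treatment thus parted 123 windows and the replicate number 128. In the remaining way to pair the 4 libraries, 33 windows were marked only in Corin replicate 1 with DMSO replicate 2 and 16 only in Corin replicate 2 with DMSO replicate 1, fewer than either of the others.

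The excess of appearances was not seen when each list held the same number of peaks. With the 11104 top-scoring peaks of each list, the length of the shortest, H3K4me3 appeared at 61 windows (0.607% of 10048) and disappeared at 69 (0.687%), against 51 (0.508%) and 96 (0.955%) for the replicate numbers. The lowest score kept was then 84 and 92 in the Corin lists and 50 and 73 in the DMSO lists. With a score of at least 100 in every list the excess was there, with 103 appearances and 34 disappearances. Both ways of counting gave 53 of the appearances and 20 of the disappearances, beside 24 and 68 windows that parted the replicates. Leaving out a library loosens the rule to 3 libraries. Appearances then numbered 221 without Corin replicate 1, 239 without Corin replicate 2, 150 without DMSO replicate 1 and 310 without DMSO replicate 2. Disappearances numbered 82, 85, 98 and 64 in the same order. With both directions added, the treatment parted 130 windows at the matched number and the replicate number 147.

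**Figure D1:**
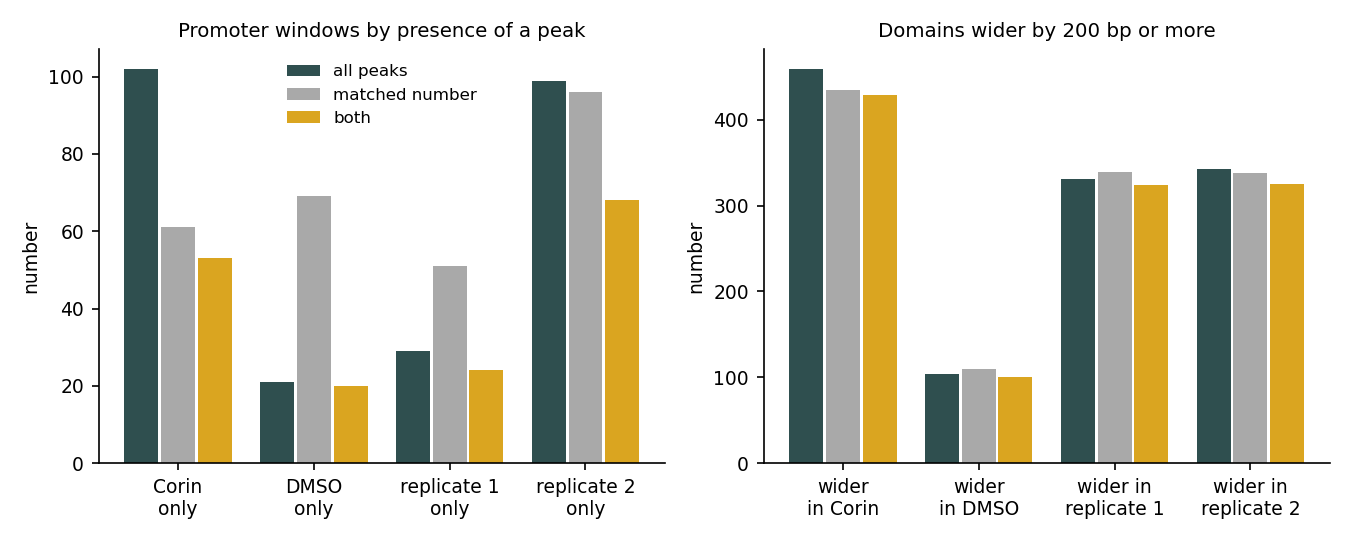
Bars give the number of promoter windows marked only in 1 pair of libraries (left) and of promoter domains wider by 200 bp or more in 1 pair (right), with all peaks, with the matched number of top-scoring peaks, and in both. Corin-only windows fall from 102 to 61 at the matched number while DMSO-only windows go from 21 to 69, and the replicate bars with all peaks stand at 29 and 99; domains wider in Corin number 459 and 435.

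Most appearances were small and scored low. The bp under H3K4me3 peaks in the 102 windows ran from 45 to 1473 bp in Corin replicate 1, with a median of 359 bp, and from 43 to 1360 bp in Corin replicate 2. The peaks there stood at a median percentile of 11.1 of the scores in their own list, close to 9.04 and 9.87 for the windows that parted the replicates and 10.8 for disappearances. At 94 windows the whole domain was absent from both DMSO libraries, and at 8 a domain that lay outside the window under DMSO reached into it under Corin. Protein-coding start sites lay in 86 of the 102.

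The promoters named here are the 8 with the most bp in the domain among the 53 counted both ways. CD68 (start site chr17:7579638) had 960 and 961 bp in its window in the Corin libraries and 0 bp in both DMSO libraries. A DMSO replicate 2 peak of 213 bp lay farther into the gene. RBM47, an RNA-binding protein (chr4:40629370-40630842), had 1473 and 1360 bp under Corin and 0 bp in both DMSO libraries. At both, all of the mark in the window was in the Corin libraries, as the rule for an appearance requires. TTYH2, a membrane protein of the tweety family, had 1223 and 1177 bp, and GLIPR1 had 930 and 924 bp, with 0 bp in both DMSO libraries for each. At CD68, RBM47 and GLIPR1 each setting run and each left-out library moved the difference by less than 1.5 times, while at TTYH2 a score minimum of 100 reduced the difference over the domain to 884 bp.

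The other 4 of the 8 were extensions of a domain already present under DMSO. LINC01619 had 1211 and 390 bp in its window under Corin and 0 bp under DMSO, beside domains of 4151, 2571, 1901 and 2496 bp in Corin 1, Corin 2, DMSO 1 and DMSO 2. Here Corin replicate 1 stood apart: the difference over the domain was 372.5 bp without it and 1952 bp without Corin replicate 2. At alternative start sites of TPM4, a tropomyosin, the window held 359 and 256 bp under Corin. That of ATP2B4, a calcium pump of the plasma membrane, held 511 and 150 bp. That of RTN4, a reticulon of the endoplasmic reticulum, held 123 and 163 bp under Corin, on a domain of about equal width in all libraries (3202, 3521, 2961 and 3233 bp). The RTN4 domain difference ranged from 105 bp without Corin replicate 2 and 128.5 bp without DMSO replicate 1 to 424 bp without Corin replicate 1 and 400.5 bp without DMSO replicate 2.

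With all peaks, disappearances were fewer, and their windows held 105 to 809 bp in DMSO replicate 1, with a median of 252 bp. PITPNM2 had 802 and 908 bp in its window in DMSO replicates 1 and 2 and 0 bp in both Corin libraries. UXT had 809 and 705 bp under DMSO and 0 bp under Corin. Both domains (chr12:123150510-123151417 and chrX:47658406-47659234) were absent from the Corin lists. SIN3B, a scaffold of a histone deacetylase complex, had 201 and 596 bp under DMSO, and its domain difference was -201 bp without DMSO replicate 2 against -398.5 bp with all libraries. SPATA24 had 517 and 574 bp, and the window shared by FAM221B, TMEM8B and ENSG00000285645 had 603 and 521 bp, where a score minimum of 100 changed the domain difference to -260.5 bp. By the rule for a disappearance, none of these 3 windows had a peak in a Corin library. At an alternative start site of the lncRNA AQP4-AS1, 105 and 159 bp of a DMSO domain reached the window, while another promoter of the same gene, shared with PCAT18, was among the domains most wider under Corin. At ADHFE1, a mitochondrial dehydrogenase, and at an alternative start of the splicing factor BUD31, the edge of a wide domain reached the window under DMSO alone. The ADHFE1 window held 348 and 305 bp under DMSO on a domain of 3092 and 3086 bp, which spanned 2522 and 2675 bp under Corin. The BUD31 window held 216 and 51 bp, and its domain difference was -160 bp without DMSO replicate 1.

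**Figure D2:**
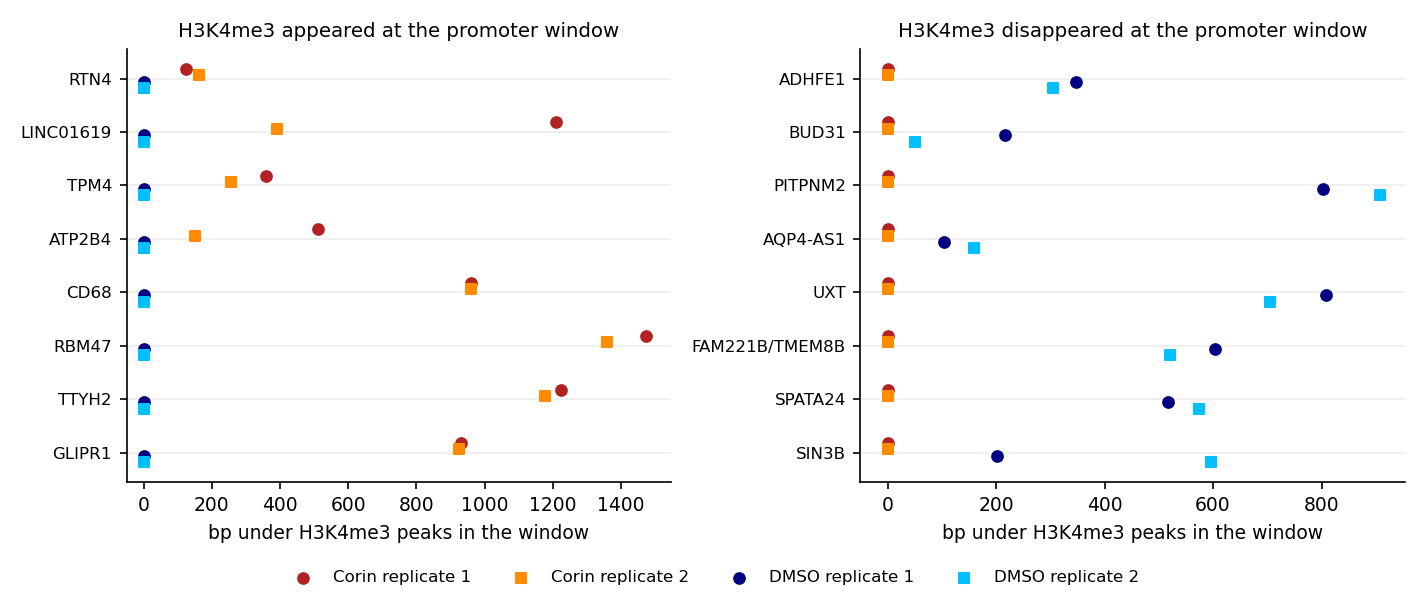
Points give the bp under H3K4me3 peaks within the promoter window of each named gene in each of the 4 libraries. The DMSO points of the left panel and the Corin points of the right panel lie at 0 by the rule that chose the windows; RBM47 reaches 1473 and 1360 bp and PITPNM2 802 and 908 bp.

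By the ratio of observed to expected CpG, the appearances lay in promoters of lower CpG density than the disappearances. The ratio of observed to expected CpG in the window had a median of 0.516 at appearances (quartiles 0.303 and 0.661) and 0.684 at disappearances (0.569 and 0.751). It was 0.683 at windows marked in all 4 libraries and 0.256 at windows marked in none. Windows that parted the replicates had medians of 0.57 and 0.599, and windows marked in 1 library of 4 had 0.567. Of these partly marked classes, the disappearances alone had a median ratio level with that of windows marked in all 4. At the matched number the medians were 0.582 for appearances and 0.684 for disappearances. RefSeq promoters matched 69 of the 102 appearance windows and 11 of the 21 disappearance windows. Their 250 bases held a median of 14 CpG at appearances, 16 at disappearances, 22 where all 4 libraries were marked and 5 where none was. At windows marked only in replicates 1 and 2 the medians were 11.5 and 20. On this count both appearances and disappearances thus lay between the replicate classes. The motif GAGGAA, a core of the sites bound by PU.1, searched on both strands of the 300-base RefSeq promoters, was in 23.4% of the promoters at appearances, 11.1% at disappearances and 27.9% of all 35116 RefSeq promoters. It was in 14.3% and 28.4% at windows marked only in replicates 1 and 2 and in 26.5% where all 4 libraries were marked, so the share at appearances lay within the range of the other classes. These shares are a description of the sequences, and differences between the classes were not tested.

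H3K4me2, the dimethyl form, was already at every promoter where H3K4me3 appeared. H3K4me2 peaks overlapped all 102 windows in every one of the 4 libraries of that mark, as did 20 of the 21 where H3K4me3 disappeared and 8940 of the 9154 marked in all 4. The mean H3K4me2 coverage of the 102 windows was 1666 and 1604 bp under Corin and 1441 and 1525 bp under DMSO. Both Corin libraries lay above both DMSO libraries, by 152 bp (group means 1635 ± 43.8 and 1483 ± 59.0 bp, SD, n = 2 each, exact permutation p = 0.333, the smallest possible). The same difference at windows marked in all 4 libraries was 5.44 bp, from 1597, 1496, 1448 and 1634 bp, where the groups overlapped. Both Corin means also lay above both DMSO means at windows that parted the replicates and at windows marked in 1 library of 4. This order was thus not particular to appearances. Under Corin and DMSO the means were 1532 and 1265 against 1254 and 1249 bp for replicate 1 only. For replicate 2 only they were 1413 and 1412 against 1212 and 1411 bp. For 1 library of 4 they were 1385 and 1326 against 1186 and 1274 bp. Window by window, H3K4me2 coverage was higher in both Corin libraries than in either DMSO library at 45 of the 102 windows (44.1%). The background over windows marked in all 4 was 17.1%, where 12.0% were lower in both Corin libraries, beside 2 of the 102 (1.96%). The share was 19.0% at disappearances, 31.0% and 26.3% at windows that parted the replicates, and 34.8% at windows marked in 1 library of 4.

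H3K27ac, the acetyl mark of active regulatory regions, was present at fewer of these windows. Of the 102 windows, 46 and 40 had an H3K27ac peak in the Corin libraries and 32 and 31 in the DMSO libraries. Mean coverage was 468 and 362 bp under Corin and 229.1 and 213.2 bp under DMSO, a difference of 193.8 bp (exact permutation p = 0.333), or 125.8 bp with equal numbers of top-scoring H3K27ac peaks. Both Corin libraries were higher, as they were at windows marked in all 4, where the difference was larger at 297.4 bp. H3K27ac was higher without overlap at 24 of the 102 (23.5%), beside 40.6% over windows marked in all 4. The share was 4.76% at disappearances, 17.2% and 8.08% at windows that parted the replicates, and 14.9% at windows marked in 1 library of 4. A window with no H3K27ac peak in any library cannot be counted as higher, and these were 53 of the 102 and 1158 of the 9154. At disappearances neither mark separated the groups: H3K4me2 differed by 39.7 bp and H3K27ac by 16.7 bp, with an exact permutation p of 1 for each. At GLIPR1, H3K27ac covered 1281 and 975 bp under Corin and 243 and 467 bp under DMSO, while at RBM47 it was listed in Corin replicate 1 alone, at 355 bp.

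**Figure D3:**
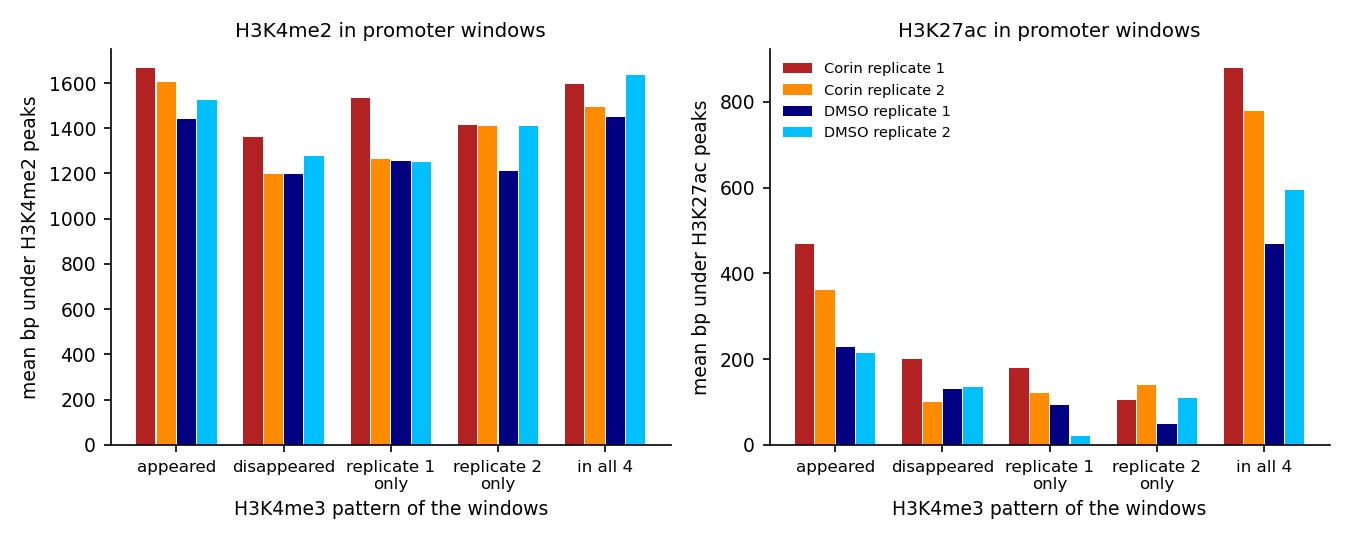
Bars give the mean bp under H3K4me2 peaks (left) and H3K27ac peaks (right) per promoter window in each library of those marks, for windows grouped by their H3K4me3 pattern. At appearances both Corin bars exceed both DMSO bars for H3K4me2 (1666 and 1604 against 1441 and 1525 bp). They do so too at windows marked only in replicate 1 and only in replicate 2. For H3K27ac both Corin bars are higher at appearances, at windows marked only in replicate 1 and at windows marked in all 4.

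Promoter domains were slightly wider under Corin at the median, and no single domain passed the test. A domain is a region merged over the 4 lists that overlaps a promoter window, and its width in a library is the bp under that library's peaks. Of 10777 promoter domains, 9285 had a peak in all 4 libraries and were tested. Median widths were 1396 and 1352 bp under Corin and 1276 and 1343 bp under DMSO, so the Corin libraries were the upper 2, with Corin replicate 2 barely above DMSO replicate 2. The median log2 difference was 0.046, against 0.0087 between replicates 2 and 1, and 63.0% of domains were wider under Corin. That median was 0.023 without DMSO replicate 1 and 0.069 without DMSO replicate 2, and -0.023 after each library was centred on its median. With limma, 0 domains passed a Benjamini-Hochberg adjusted p of 0.05 (0.0% called, smallest adjusted p 0.187). At an unadjusted p under 0.05, limma gave 468 wider and 98 narrower domains, and 402 and 359 for replicate 2 against replicate 1. The lean to wider domains was smaller after centring (287 and 214) and without Corin replicate 1 (264 and 214), and larger without DMSO replicate 2 (705 and 85).

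Counted by distance instead, 459 domains were wider under Corin and 104 narrower. Such a domain has groups that do not overlap and lie 200 bp or more apart, with no test attached. They were 4.94% and 1.12% of domains, and the replicate numbers parted 331 (3.56%) and 342 (3.68%) in the same way. Without the 200 bp limit, 2272 domains (24.5%) were wider in both Corin libraries and 884 (9.52%) narrower, against 1728 (18.6%) and 1848 (19.9%) for replicates 1 and 2. The matched number of peaks gave 435 wider (4.78%) and 110 narrower (1.21%), with 339 (3.73%) and 338 (3.72%) for the replicates, and 429 and 100 domains were counted both ways. Centring each library on its median took out a shift of 0.0697 (log2) and changed the split to 263 wider and 204 narrower. Leaving out 1 library gave 1003, 1461, 860 and 1532 wider domains without Corin 1, Corin 2, DMSO 1 and DMSO 2, and 551, 351, 546 and 392 narrower. Among wider domains, those nearest the limit were DOK1 and ARHGAP45, each just inside with a gap of 200 bp, and MORC2/TUG1, just outside with 199 bp. The widths of the 459 differed by 228 to 2030.5 bp, with a median of 443.5 bp.

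The median log2 difference was similar over domains of all sizes. With the domains split by mean width into 4 equal parts, the median log2 difference was 0.046, 0.050, 0.053 and 0.040 from the narrowest to the widest. Domains wider by 200 bp or more numbered 80, 74, 129 and 176 in the same order, and narrower ones 19, 24, 24 and 37, so more of both lay among the widest. The median absolute difference between treatments was 0.114 and that between replicates 0.121, so a typical domain varied as much between replicates as between treatments. In 5139 domains with 1 promoter window and start sites on 1 strand, the arm downstream of the main start site was 1065 and 1034 bp under Corin and 996.7 and 1015 bp under DMSO. Both Corin libraries were longer there, by 43.4 bp (exact permutation p = 0.333), while the upstream arm overlapped between groups at 337.3, 334.2, 301.2 and 340.7 bp (exact permutation p = 1). In the 245 of these domains counted as wider, the downstream arm was longer by 328 bp and the upstream arm by 165 bp. The downstream arm was 1449 and 1428 bp under Corin and 1099 and 1122 bp under DMSO. The upstream arm was 492.7 and 493.9 against 311.3 and 345.6 bp, so it was longer by more in proportion to its length. In the 53 counted as narrower the balance in bp was the opposite, with -173 bp downstream and -236 bp upstream. Of the 459 wider domains, 308 (67.1%) were a single peak in all 4 lists, beside 82.5% of all 9285, and 0 had more peaks in both Corin libraries, beside 0.894% of all.

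SRGN, LYZ and BST2 were among the domains that were most wider under Corin. The 8 named have the largest difference in mean bp among the 429 counted both ways. SRGN, which encodes the granule proteoglycan serglycin (chr10:69086701-69094277), spanned 7577 and 6348 bp under Corin and 4534 and 5330 bp under DMSO. LYZ, which encodes lysozyme of macrophages and granulocytes (chr12:69348327-69351093), spanned 2736 and 2487 bp under Corin and 603 and 770 bp under DMSO. BST2, the interferon-induced membrane protein tetherin (chr19:17404302-17407359), spanned 2857 and 2757 bp against 1196 and 855 bp. At each of the 3 the lower Corin library lay above the higher DMSO library, as the rule that chose them required. The log2 difference was 1.94 ± 0.16 (SE) at LYZ with a limma adjusted p of 0.297. It was 1.47 ± 0.18 at BST2 (limma adjusted p = 0.581) and 0.50 ± 0.12 at SRGN (limma adjusted p = 0.717).

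The other 5 included an alternative start and shared promoters. The alternative start of SATB1, a chromatin organiser, spanned 3458 and 3273 bp under Corin and 2263 and 1196 bp under DMSO, where the 2 DMSO libraries themselves lay far apart. TSPOAP1 spanned 10300 and 10461 bp against 7859 and 9091 bp, the widest of the 8. CLEC11A, a growth factor of blood progenitors, shares a domain with SHANK1, a synaptic scaffold protein. It spanned 7179 and 6704 bp against 4665 and 5534 bp. GABARAP, which acts in autophagy, and PHF23 share a domain of 5664 and 4933 bp under Corin and 3563 and 3711 bp under DMSO. The domain of the lncRNAs AQP4-AS1 and PCAT18 spanned 3512 and 3870 bp against 2493 and 1814 bp. None of the 8 passed limma, and none of their differences moved by over 1.5 times when a library was left out.

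Narrower domains were fewer, and the median difference of the 104 was -419.75 bp (log2 -0.38), about the size of that of the wider domains (log2 0.40). The 8 with the largest difference ran from -763 bp at the domain shared by ODR4 and TPR, a nuclear pore protein, to -598 bp at PMVK, an enzyme of the mevalonate pathway. The ODR4/TPR domain spanned 2110 and 1728 bp under Corin and 2796 and 2568 bp under DMSO (log2 difference -0.49 ± 0.12 SE, limma adjusted p = 0.717). ZBTB33, which encodes the methyl-CpG binding factor Kaiso, spanned 1761 and 1403 bp against 2069 and 2411 bp, and a score minimum of 100 changed its difference from -658 to -429.5 bp. At an alternative start of ATXN7, a subunit of the SAGA acetyltransferase complex, widths were 538 and 451 bp against 853 and 1369 bp, with a difference of -358.5 bp without DMSO replicate 2. By the rule that chose them, the groups did not overlap at any of these 3. The lncRNA pair DLEU1/DLEU2, MAML3, a Notch co-activator, and MIR9-3HG rested most on Corin replicate 2: without it their differences were -388.5, -393 and -338 bp, from -706, -632.5 and -602.5 bp. At PMVK, with 841 and 1378 bp under Corin and 1764 and 1651 bp under DMSO, the difference was -329.5 bp without Corin replicate 1 and -383 bp with peaks under 500 bp apart joined. The lncRNA ENSG00000287083 spanned 4333 and 4052 bp against 4831 and 4897 bp.

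**Figure D4:**
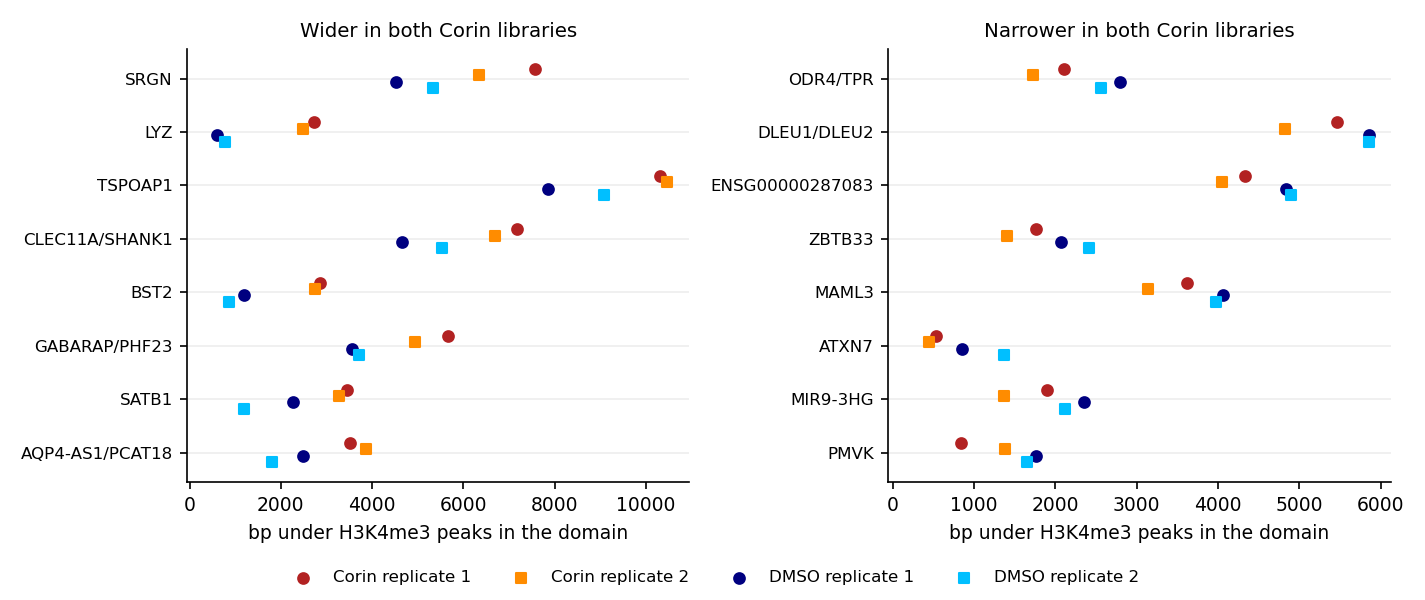
Points give the bp under H3K4me3 peaks in each named promoter domain in each of the 4 libraries, for the 8 domains most wider (left) and most narrower (right) under Corin. LYZ and BST2 show the clearest gap between groups in proportion to their width (2736 and 2487 against 603 and 770 bp at LYZ), and the gaps on the right are smaller, as at DLEU1/DLEU2.

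H3K27ac was higher under Corin over part of the domains of each kind. Its coverage was higher in both Corin libraries than in either DMSO library at 47.5% of the 459 wider domains, at 35.6% of the 104 narrower domains and at 39.9% of all 9285. Mean H3K27ac over the wider domains was 1231 and 1136 bp under Corin and 679.4 and 840.3 bp under DMSO. H3K4me2 coverage was lower in both Corin libraries at 17.0% of wider domains, 15.4% of narrower domains and 14.8% of all, and higher in both at 3.27%, 5.77% and 3.61%. At LYZ, H3K4me2 covered 2767, 2571, 2744 and 2754 bp in Corin 1, Corin 2, DMSO 1 and DMSO 2, and at BST2 it covered all 3058 bp of the domain in each library. At every domain H3K4me2 was counted only inside the H3K4me3 domain, whose length caps it, so at these 2 genes the values stand at or near the most they can take and cannot show whether the H3K4me2 width differed.

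Among genes of myeloid differentiation, H3K4me3 appeared at 4 of 28 and disappeared at 0. Over all 20007 protein-coding genes it appeared at 90 and disappeared at 22. The list was chosen with earlier results of these data known, so its count is no independent evidence. Of the 28, 11 and 10 had a promoter peak in the Corin libraries and 5 in each DMSO library, and 16, among them ITGAM, ITGAX and S100A8, had none in any. Over all protein-coding genes, 10474 and 10514 had one in the Corin libraries, 10215 and 10455 in the DMSO libraries, and 9194 in none. The 4 genes where H3K4me3 appeared were CD68, CTSS, FCGR2A and MNDA. CTSS, the lysosomal protease cathepsin S, had 590 and 593 bp under Corin and 0 bp under DMSO. FCGR2A, an Fc receptor, had 358 and 591 bp, and MNDA, the myeloid nuclear differentiation antigen, had 478 and 263 bp, again with 0 bp under DMSO. The calls at CD68 and CTSS held at the matched number, while at that number FCGR2A was left in Corin replicate 2 alone and MNDA in Corin replicate 1 alone. CD14 and VCAN had a peak in Corin replicate 1 only (406 and 355 bp) and CSF1R in Corin replicate 2 only (328 bp).

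Of the 5 myeloid genes with a domain in all 4 libraries, 3 were wider by 200 bp or more, beside 4.81% of the 9995 protein-coding genes tested. They were LYZ, IRF8 and KLF4, and CEBPB was the 1 that was narrower, beside 1.16%. KLF4, a transcription factor of monocytes, spanned 1154 and 1278 bp under Corin and 514 and 546 bp under DMSO (log2 difference 1.20 ± 0.18 SE, limma adjusted p = 0.657). IRF8, another, spanned 4290 and 4093 bp against 3713 and 3535 bp. CEBPB spanned 2443 and 2377 bp against 2711 and 2677 bp, the opposite order. The median of the 5 was 0.21 (log2), and 0.14 after centring, where the median of all protein-coding genes was 0.046 and -0.024. Limma passed none of the 5.

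Of the 10 AML markers with a domain in all 4 libraries, 3 were wider under Corin by 200 bp or more, beside 4.81% of protein-coding genes, and 0 were narrower by that much. Their median width under DMSO was 2799 bp, against 1413 bp over protein-coding genes, and wide domains met the 200 bp rule more often. The median of the 10 was 0.081, with 0.012 after centring, 0.042 without Corin replicate 1 and 0.139 without Corin replicate 2. SPI1, which encodes the myeloid factor PU.1 (chr11:47374531-47378850), spanned 4132 and 4295 bp under Corin and 2841 and 3081 bp under DMSO (log2 difference 0.51 ± 0.07 SE, limma adjusted p = 0.657). CD4, also a monocyte receptor, spanned 2492 and 3209 bp against 1423 and 1308 bp. CSF3R, the receptor of granulocyte colony-stimulating factor, spanned 1081 and 1074 bp against 867 and 779 bp. In these 3 the Corin libraries were the wider by the rule that counted them, while CD33 and HOXA9 overlapped between groups. MYB, a transcription factor of blood progenitors, went the other way, with 4271 and 3863 bp under Corin and 4368 and 4292 bp under DMSO and a gap under 200 bp. EPOR, the marker of another lineage, was also wider, at 3914 and 3406 bp against 2397 and 2187 bp (log2 difference 0.67 ± 0.10 SE, limma adjusted p = 0.657). The other 5 erythroid and megakaryocyte markers had no peak in any library.

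Of 21 retinoic acid genes, 13 had no peak in any library and 7 had one in all 4. Among all 20007 protein-coding genes, 9194 had no peak in any library and 9995 had one in all 4. ICAM1, an adhesion molecule, spanned 1816 and 1937 bp under Corin and 225 and 248 bp under DMSO (chr19:10269736-10271672). It had the smallest limma adjusted p of all 9285 domains, 0.187, with a log2 difference of 2.99 ± 0.20 (SE). At the matched number DMSO replicate 2 had no peak there, so the domain was not tested and is not among those counted both ways. RARA, the retinoic acid receptor alpha, spanned 2482 and 2372 bp against 1712 and 1617 bp (log2 difference 0.54 ± 0.08 SE, limma adjusted p = 0.657). The retinoid reductase gene DHRS3 spanned 768 and 1046 bp against 622 and 217 bp, without overlap and with a gap under 200 bp. ICAM1 and RARA were the 2 of the 7 that were wider by 200 bp or more, beside the same 4.81%. The median of the 7 was 0.15, and 0.085 after centring, 0.045 without Corin replicate 1, 0.271 without Corin replicate 2 and 0.263 without DMSO replicate 2.

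Genes tied to the stem-like and MLL-fusion programme had wide domains in both groups. Of 25, 20 had a domain in all 4 libraries, with a median width of 4962 bp under DMSO, against 1413 bp over protein-coding genes. HOXA9 spanned 7541 and 7131 bp under Corin and 7186 and 7138 bp under DMSO. MEIS1, its partner homeobox gene, spanned 6995 and 6709 bp against 6942 and 6808 bp. The groups overlapped at both. MEF2C was the 1 domain of the 20 that was wider by 200 bp or more (5211 and 5166 bp against 4759 and 4750 bp), and 0 were narrower by that much. Each gene was counted by 1 domain. At SATB1, a member of the list, the domain counted overlapped between groups (6526 and 6141 bp against 6279 and 6636 bp). The alternative start of SATB1, named above among the domains most wider under Corin, was not counted here. The 1 of 20 is 5.0%, about the 4.81% of all protein-coding genes. Wide domains met the 200 bp rule more often, at 176 of the 2319 in the widest of 4 equal parts and 80 of the 2322 in the narrowest. The 4.81% is thus not a share over domains as wide as these. The list's median was 0.019. It was -0.050 after centring, which shifts every gene alike and took the median of all protein-coding genes from 0.046 to -0.024. It was -0.026 without Corin replicate 1, 0.066 without Corin replicate 2, 0.0025 without DMSO replicate 2 and 0.0076 at the matched number.

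For the target complex and the enzymes of the mark, the counts of such differences stand beside 4.81% wider and 1.16% narrower over all protein-coding genes, and are too small to be told from these. Of 16 CoREST complex genes, 15 were marked in all 4 libraries, with a median of 0.025 (-0.045 after centring, -0.0026 without DMSO replicate 1, 0.066 without Corin replicate 2 and 0.084 without DMSO replicate 2). GSE1, a subunit, was the 1 that was wider by 200 bp or more, at 4502 and 4479 bp against 4012 and 4150 bp. KDM1A, which encodes LSD1, spanned 1808 and 1756 bp against 1952 and 1871 bp, lower in both Corin libraries with a gap under 200 bp. Of 21 genes for enzymes and readers of H3K4 methylation, 20 were marked in all 4, 0 were wider or narrower by 200 bp or more, and the median was 0.014. That median was -0.055 after centring, -0.018 without DMSO replicate 1, 0.0076 without Corin replicate 2, 0.043 without Corin replicate 1 and 0.061 without DMSO replicate 2. The 20 ribosomal protein genes, marked in all libraries, had a median of 0.088 (0.019 after centring), and 5 of them were wider by 200 bp or more, beside 4.81% of protein-coding genes. Their median width under DMSO was 2658 bp, against 1413 bp over protein-coding genes, and wide domains met the 200 bp rule more often. The 5 were RPL18, RPL19, RPS3, RPS9 and RPS18. RPL18 spanned 3341 and 3010 bp under Corin and 2656 and 2499 bp under DMSO, and RPS9 2745 and 2655 bp against 2227 and 2159 bp. The log2 differences of the 5 ran from 0.15 at RPS18 to 0.30 at RPS9 and RPL18, and limma passed none of them.

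Neuronal and developmental genes were largely without the mark, which was also absent from 9194 of all 20007 protein-coding genes. Of 24 neuronal genes known as targets of REST and CoREST, 20 had no peak in any library and 4 were marked in all 4. TUBB3, a neuronal tubulin, was the 1 of these 4 that was wider by 200 bp or more (1299 and 936 bp against 587 and 652 bp), beside 4.81% of protein-coding genes. The median of the 4 was -0.042, or -0.112 after centring, -0.115 without Corin replicate 1 and -0.137 without DMSO replicate 1, and its sign turned without Corin replicate 2 (0.032) and without DMSO replicate 2 (0.074). Of 21 developmental transcription factors, 18 had no peak in any library, and OLIG2 had 510 bp in its window in DMSO replicate 1 and 0 bp in the other libraries. Of 27 genes of interferon response and antigen presentation, 13 were marked in all 4 and H3K4me3 appeared at 1, beside 90 of all 20007 protein-coding genes. That gene was IRF9, a subunit of the transcription complex of type I interferon, with 327 and 247 bp under Corin and 0 bp under DMSO. The median of the 13 was -0.017, or -0.086 after centring and -0.165 without Corin replicate 1. It was -0.0054 without DMSO replicate 1, and its sign turned without Corin replicate 2 (0.079) and without DMSO replicate 2 (0.046). Of the 13, 0 were wider or narrower by 200 bp or more.

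**Figure D5:**
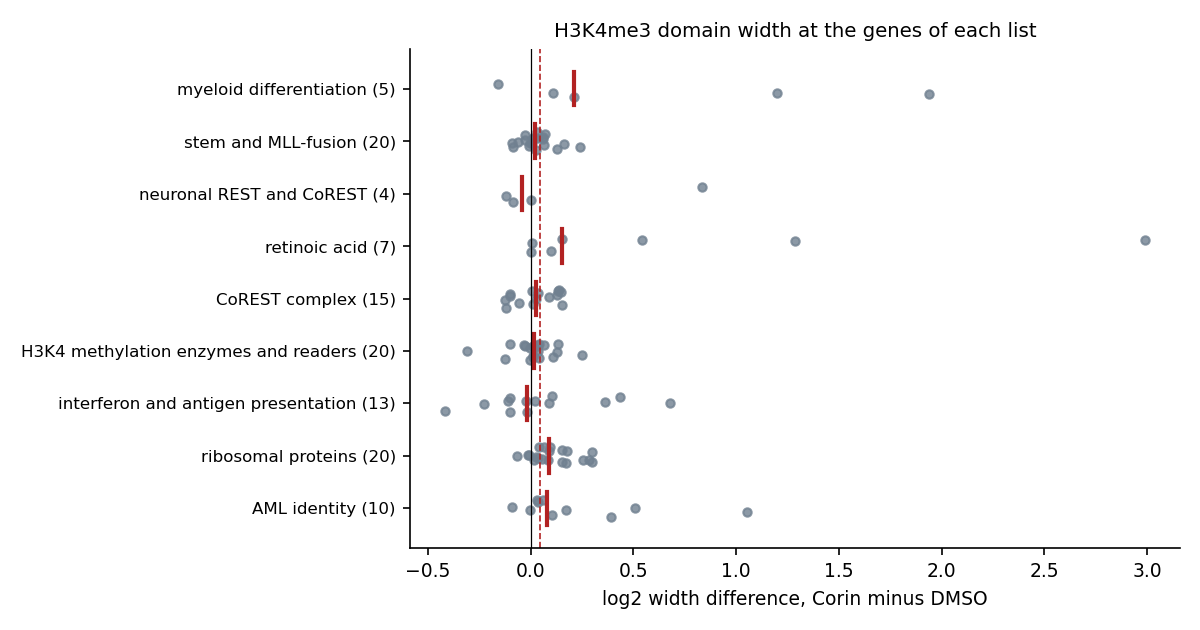
Each point is the log2 difference in domain width, Corin minus DMSO, of 1 gene with a domain in all 4 libraries, grouped by list with the number of genes in brackets; the red bar is the list's median, the dashed line the median of all protein-coding genes (0.046) and the solid line 0. ICAM1 (2.99) and LYZ (1.94) lie farthest right, and the stem and MLL-fusion genes lie close to 0.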

How the data were processed

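CUT&RUN peak lists of 4 H3K4me3 libraries were analysed, with 8 H3K4me2 and H3K27ac lists as further readouts; whether those came from the same cultures is not given in the sources used here. Trim Galore, Bowtie2, Picard, MACS2 and the build GRCh38/hg38 are named, without roles or versions, per the submitters' processing notes; the control and the calling threshold are not given in the sources used here. Each peak carries a score from the authors, whole-numbered and never under 50, with no stated definition; here it served for ranking and filtering inside a list and nothing else. Depth per library is unknown.

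Coordinates are on hg38, counted from 1, and 0 peaks of the 4 lists passed a chromosome end. Start sites came from basic transcripts of protein-coding and lncRNA genes in GENCODE release 44 (84769 sites, 40892 windows of 1000 bp either side, merged). Domain widths were tested on the log2 scale with limma 3.58.1 (eBayes with trend, Benjamini-Hochberg, R 4.3.3); other tests were exact permutation tests. The test was checked on simulated data. The members and gene lists were chosen with earlier results of these data known. Named were the 8 promoters per direction with most bp in the domain and the 8 domains per direction with the largest difference, both held with all peaks and with 11104 top-scoring peaks per list, plus list members meeting a call; 1 promoter that met the rule is not reported here and the next in order took its place. Because no domain passed limma, the 200 bp distance rule chose the domains. Genes named as unmarked or overlapping, and H3K4me2 or H3K27ac values of single genes, were chosen after their values were seen. Alternatives were a score of at least 100, joining peaks under 500 bp apart, windows of 500 and 2000 bp, an overlap of 200 bp, centring, linear bp, all domains with log2(bp + 100), a replicate block, and leaving out each library.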

Additional observations from a re-analysis of the deposited data

How the results depend on the processing

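Peak number, covered length and both marks at appearances kept their direction under every alternative run, and limma passed 0 domains in each; the exact tests could not go under 0.333 with all libraries, so their p-values say nothing of stability. The share of peaks at promoters (-1.315 points) ranged from -1.778 to -0.852 points under the other alternatives, but at the matched number the groups overlapped and the difference was -0.009 points. Median peak width turned from -0.0064 (log2 ratio) to 0.013 with a score of at least 100, 0.058 at the matched number and 0.043 with peaks joined, and ranged from -0.048 to 0.037 with a library left out (0.025 without Corin replicate 2). Appearances fell from 102 to 61 at the matched number and ranged from 150 to 310 with a library left out. Disappearances went from 21 to 69 at the matched number and 34 with a score of at least 100, and ranged from 64 to 98. Wider domains (459) were 263 after centring and 860 to 1532 with a library left out, and narrower domains (104) were 204 and 351 to 551. The larger counts with a library left out follow from a rule over 3 libraries; the other causes were not tested. At disappearances H3K4me2 (39.7 bp) was -1.6 bp at the matched number and ranged from -42.3 to 121.6 bp (-0.93 without DMSO replicate 1), and H3K27ac (16.7 bp) was -12.5 bp and ranged from -33.7 to 67.1 bp.

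With only 2 same-numbered pairs and no label on what a number shares, the replicate numbers were not shown to pair the libraries. Deviations of same-numbered libraries correlated at 0.239 over 9285 domains. With the replicate block, 714 domains were wider and 197 narrower within both pairs, and limma passed 0. Depth is unknown, so its part in these counts was not tested. ICAM1, with a log2 difference of 2.99, did not pass limma (adjusted p = 0.187), and the counts of 0 do not show that widths were alike.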
